A study of Mus musculus with 18 samples.

Results

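DNA repair and damage response genes were followed through red cell maturation in G1E-ER4 cells, a mouse erythroid line. The genes were the probe sets (groups of short DNA probes that read 1 transcript) whose single platform gene symbol belonged to the Rad, Xrcc, Ercc, Msh, Mlh, Pms, Brca, Fanc, Chek and numbered Parp families, or was Lig3, Lig4, Xpa, Xpc, Ung, Apex1, Ogg1, Atm, Atr, Trp53, Blm or Wrn. Rad21 was left out by the rule. This gave 54 probe sets for 43 genes, of 12422 probe sets and 8251 genes with a single-symbol probe set on the array. Where a gene had several probe sets, the one with the highest mean signal stood for it. The rule used names alone and no measured change. Genes of these families without such a probe set were not analysed here.

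G1E cells came from embryonic stem cells in which Gata-1, the erythroid transcription factor, had been disrupted by targeting. The ER4 line is 1 subclone of them that carries Gata-1-ER, a fusion of Gata-1 to the estradiol binding domain. All arrays therefore shared the Gata-1 disruption and the fusion gene. RNA was taken at 0 h, before estradiol, and at 3, 7, 14, 21 and 30 h after it was added, from 3 biological replicates, A, B and C, at each time. Each of the 18 samples was read on an Affymetrix MG-U74Av2 array. The submitters placed the course between the late BFU-E and the orthochromatic erythroblast. No untreated cells kept for the later times were analysed here, so estradiol and time in culture cannot be told apart. The labels do not say what separated the replicas, so the p-values measure the spread between these arrays. RNA came from whole cultures, where fewer cells of a type and less RNA per cell cannot be told apart.

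The deposited values are signal intensities on a linear scale. The 2% trimmed mean of the arrays ran from 150.094 to 150.124, and arrays of 1 time correlated at 0.954 or above. Of 12 erythroid marker genes, 8 were measured. Their summed signal was 10785 to 13260 on the 0 h arrays and 57054 to 69074 on the 30 h arrays, and 6 rose, among them Alas2 and Slc4a1. The summed signal of 12 neutrophil and macrophage genes went from 331 to 363 at 0 h to 417 to 621 at 30 h. Lcn2 was higher at 30 h, from a mean of 55.8 to 111 (log2 change 0.87, SE 0.22, adjusted p in limma = 0.0045), and 0 of the 12 were lower. Of the 12, 6 lay in the weakest 33.3% of probe sets. The sum of 8 mast cell genes was 249 to 296 and then 162 to 175, that of 5 megakaryocyte genes 109 to 163 and then 85.2 to 96.7, and that of 7 lymphocyte genes 199 to 244 and then 190 to 281. For 8 fibroblast and stroma genes it was 607 to 703 and then 749 to 1029, most of it from Col1a2. At an adjusted p below 0.05 in limma, 1 mast cell gene was higher at 30 h (Cma1, mean 9.73 to 64.2) and 3 were lower. Of the megakaryocyte genes, Gp5 was lower and 0 were higher. Ms4a1 of the lymphocyte genes and Vim of the stroma genes were higher, with 0 lower in either set. The part of other cell types in the repair gene results was not tested.

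DNA repair is divided by the lesion. Base excision repair removes damaged bases and mends breaks in a single strand, nucleotide excision repair cuts out bulky lesions, and mismatch repair corrects copying errors. Breaks through both strands are mended by homologous recombination, which copies an intact sister chromatid and is used mainly in S and G2 phase, or by end joining, which ligates the ends and can act throughout the cell cycle. Checkpoint kinases signal the damage and hold the cell cycle. Maturing erythroblasts leave the cell cycle after their last divisions, condense the chromatin and expel the nucleus.

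More of the repair genes fell than rose, and most of the falls came late. Signals are the deposited values, and changes are differences of quantile-normalized log2(signal + 16) with the standard error (SE) of the limma model, n = 3 arrays per time. A gene was called when its adjusted p in limma, corrected over all probe sets, was below 0.05. At 30 h, 19 of the 43 genes were lower than at 0 h (44.2%, against 16.5% of all 8251 genes) and 3 were higher (6.98%, against 14.7%). The median change of the 43 genes at 30 h was −0.51, and that of all genes was 0.05. Of the 19 that fell, 18 had all 3 arrays at 30 h below all 3 at 0 h, and Rad51d was the exception. These 18 were 41.9% of the repair genes, and 16.1% of all genes were lower without overlap. On the normalized log2(signal + 16) scale, a fall of at least 2-fold was called for 16 (37.2%, against 10.4% of all genes). A rise of at least 2-fold on that scale was called for Ercc5 alone (2.33%, against 7.34%). The added constant shrinks changes of weak genes, so these are not fold changes of the deposited signals. When the 0 and 30 h arrays alone were fitted, Parp6, Rad23b, Rad51d and Xpa lost the call.

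The falls built up after 14 h. At 3 h, Rad17 alone was higher (1.01% of all genes were) and 0 genes were lower (0.388% of all genes). At an unadjusted p below 0.05 in limma, 3 were higher and 1 was lower. The share of all genes was not counted at that threshold. At 7 h, Wrn was higher (3.15% of all genes) and Apex1 lower (2.12%). At 14 h, 2 genes were higher (7.95% of all genes), Ercc5 and Wrn, and 3 were lower (8.24%), Apex1, Chek1 and Rad50. At 21 h, 5 were higher (11.4% of all genes) and 10 were lower (13.2%), and the median change was −0.23, against 0.02 for all genes. Counts at 3, 7 and 14 h were small and near the share of all genes. The 5 calls at 14 h became 3 without 0 h array A, 0 h array C or 14 h array B, and 2 without 14 h array C. Such counts can include newly called genes, and without 0 h array C, Chek1, Ercc5 and Rad50 all lost the call. The 1 call at 3 h became 2 without 7 h array A or 21 h array A. The F test over all times called 25 of the 43 (58.1%, against 32% of all genes), and 16 genes passed neither it nor any of the 9 comparisons between times.

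**Figure D1:**
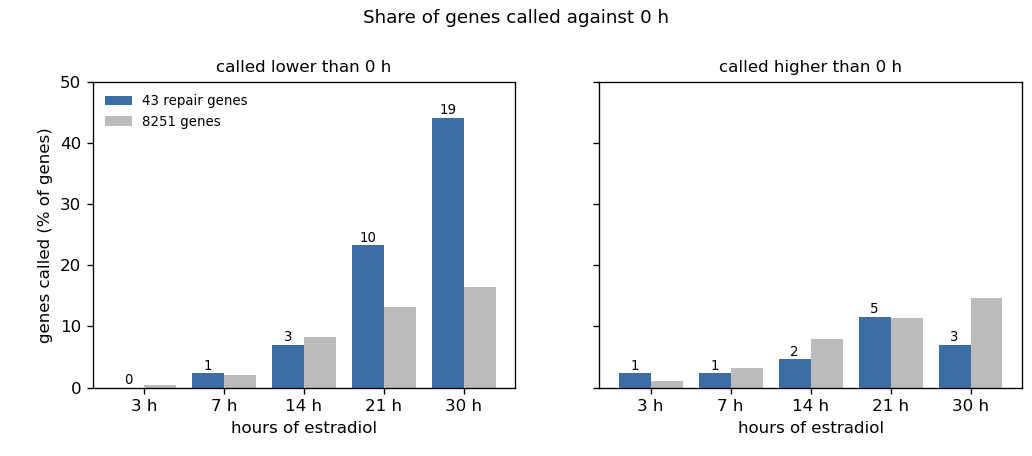
Percent of the 43 repair genes (blue, number of genes above the bar) and of all 8251 genes (grey) called lower (left) or higher (right) than at 0 h, by hours of estradiol. The blue bar for lower genes reaches 44.2% at 30 h beside a grey bar of 16.5%, and that for higher genes is 6.98% beside 14.7%.

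Between neighbouring times the steps were late as well. From 3 to 7 h, 0 genes rose (0.945% of all genes) and 0 fell (0.339%), with 2 higher and 3 lower at an unadjusted p below 0.05 in limma. From 7 to 14 h, 0 rose (1.53% of all genes) and 0 fell (1.37%), with 0 higher and 3 lower unadjusted. From 14 to 21 h, 0 rose (1.2% of all genes) and 3 fell (1.66%), namely Chek1, Parp1 and Rad51ap1, with 0 higher and 9 lower unadjusted. From 21 to 30 h, 0 rose (2.24% of all genes, 1 higher unadjusted) and 9 fell (20.9%, against 3.89% of all genes). These were Brca1, Brca2, Fancm, Msh3, Parp1, Parp2, Pms2, Rad51ap1 and Rad51b. All percentages of these steps are at the adjusted threshold. The share of all genes was not counted at the unadjusted one, so the unadjusted counts stand without a baseline. The last steps rested on few arrays. The 9 became 5 without 21 h array B, 4 without 30 h array A and 5 without 30 h array C, and 2 when those times alone were fitted. Such counts can include newly called genes. Without 21 h array B, Brca1, Fancm, Msh3, Parp1, Parp2 and Pms2 of the 9 lost the call. The 3 became 6 without 14 h array A, 1 without 14 h array B, 14 h array C or 21 h array A, and 0 when those times alone were fitted. Brca2 and Rad51ap1 kept the call from 21 to 30 h under every leave-one-out and every other setting.

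The arrays of 1 time differed in the level of the repair genes. Over all 43 genes, the median change from the 0 h mean was −0.29 on 21 h array A, −0.07 on array B and −0.12 on array C. On these arrays, 10, 4 and 6 of the 43 genes lay more than 1 log2 unit below their 0 h mean, and of all genes 10.2%, 7.53% and 8.02% did. At 30 h the medians were −0.79 on array A, −0.47 on array B and −0.43 on array C, with 20, 15 and 18 genes more than 1 unit below. Of all genes, 11.4%, 10.6% and 12.2% lay that far below on these arrays. By the median of the repair genes, array A was the lowest at both times. Array A was not the only array whose removal changed calls. With 1 array left out at a time, 12 to 18 repair genes were called at 21 h in place of 15, and Rad17, Rad23b and Rad51ap1 lost the call without 21 h array A, 21 h array C or 0 h array A. At 30 h, 19 to 23 were called in place of 22, with Fancm, Parp6 and Rad23b lost without 30 h array A and Fancm, Parp6, Rad51d and Xpa lost without 0 h array A.

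**Figure D2:**
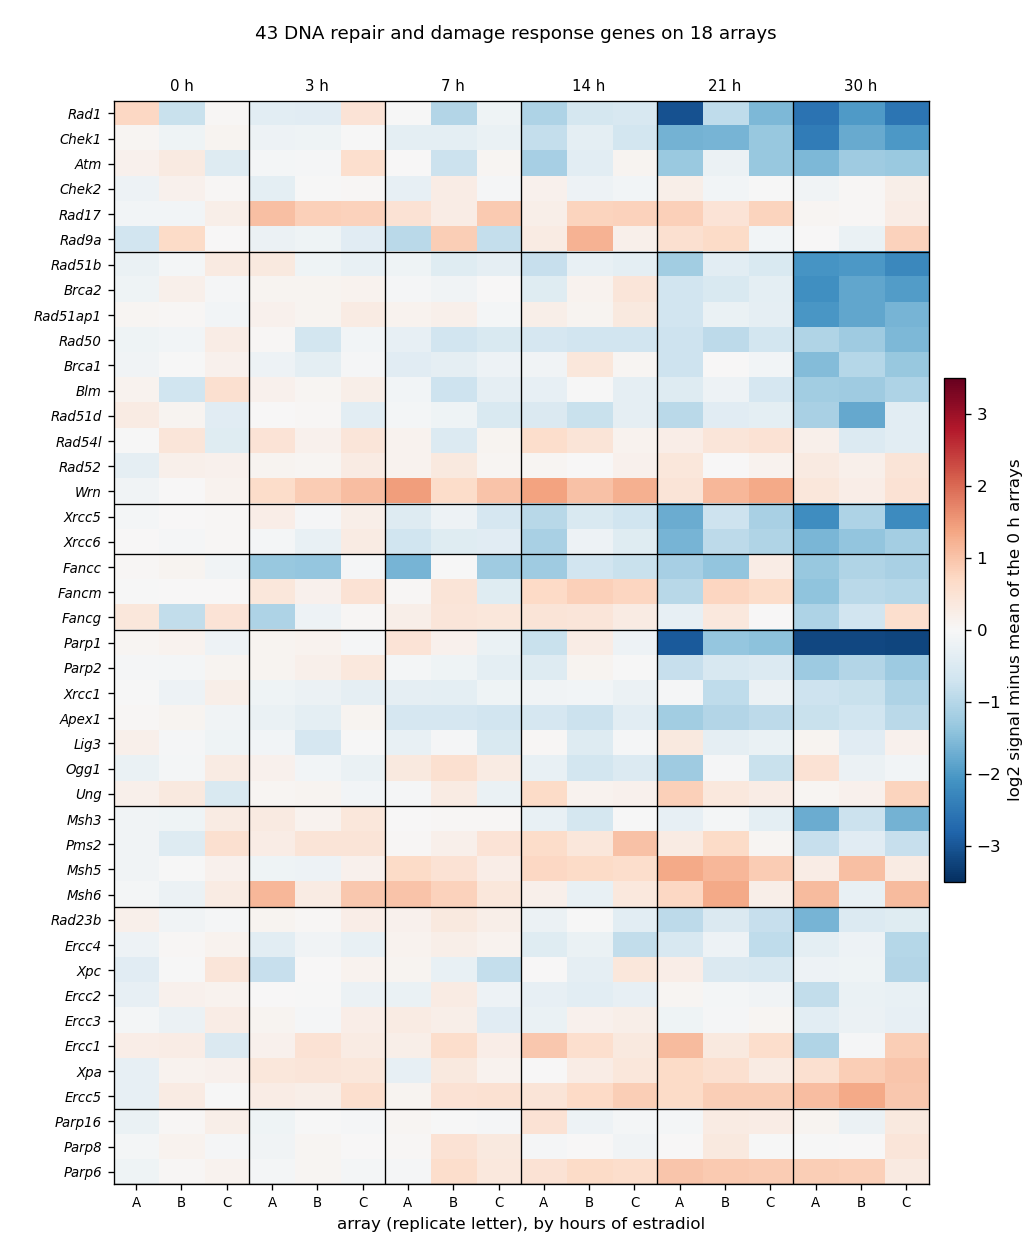
Log2 signal minus the mean of the 0 h arrays for the 43 genes (rows, in blocks by role from checkpoint genes at the top through recombination, end joining, Fanconi, base excision, mismatch and nucleotide excision to other Parp genes) on the 18 arrays (columns, by hours of estradiol and replicate letter). Blue is below 0 h and red above; the blue cells gather at 21 and 30 h in the upper 5 blocks, and Parp1 at 30 h is the darkest row.

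The promoters of the genes were read for the letters of known binding sites, since many of the genes fell at the same times. RefSeq windows of 300 bases (GRCm38.p6, 250 bases before to 50 after the start) were matched for 37 of the 43 genes. Each was searched on both strands for TTTCCCGC and TTTGGCGC, letter strings bound by the E2F cell cycle factors. The string AGATAA of the GATA factors was searched as well. A CCAAT box was the last of the strings. An E2F type string stood in the window of 7 of the 37 genes (18.9%), and of 486 of all 27025 genes of the table (1.8%). It was in 3 of the 17 genes that fell by 30 h (17.6%) and in 4 of the 20 that did not (20.0%). The sequences of 4 are printed to show both kinds, with Brca2, Msh3 and Xrcc6 from the genes that fell and Chek2 from those not called. Each runs 5′ to 3′ on the strand of the gene over the 250 bases before the start, so that its last base is at −1, and the capitals mark the E2F type string.
Brca2: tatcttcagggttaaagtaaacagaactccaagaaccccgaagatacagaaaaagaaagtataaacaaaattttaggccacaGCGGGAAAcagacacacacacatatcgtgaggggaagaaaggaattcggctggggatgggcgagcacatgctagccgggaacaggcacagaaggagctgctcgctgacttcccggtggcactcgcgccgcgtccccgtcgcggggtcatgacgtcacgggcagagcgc
Msh3: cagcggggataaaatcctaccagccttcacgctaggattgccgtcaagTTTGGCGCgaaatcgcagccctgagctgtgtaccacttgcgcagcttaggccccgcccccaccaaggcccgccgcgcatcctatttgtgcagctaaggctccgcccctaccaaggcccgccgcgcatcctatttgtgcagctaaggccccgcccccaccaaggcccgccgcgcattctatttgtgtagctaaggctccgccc
Xrcc6: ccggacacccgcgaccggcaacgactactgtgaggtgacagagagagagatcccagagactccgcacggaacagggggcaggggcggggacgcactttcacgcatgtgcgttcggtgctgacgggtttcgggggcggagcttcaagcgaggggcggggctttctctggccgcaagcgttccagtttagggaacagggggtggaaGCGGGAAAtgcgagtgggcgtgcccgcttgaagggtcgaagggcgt
Chek2: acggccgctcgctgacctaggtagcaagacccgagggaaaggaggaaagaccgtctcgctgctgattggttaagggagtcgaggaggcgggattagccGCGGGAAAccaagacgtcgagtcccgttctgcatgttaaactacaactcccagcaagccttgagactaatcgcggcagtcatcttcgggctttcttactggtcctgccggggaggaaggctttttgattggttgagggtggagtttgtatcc
The Brca2 window is chr5:150522371-150522620 on the plus strand, with the string on the opposite strand from −168. The Msh3 window is chr13:92355004-92355253 on the minus strand, with the string on the strand of the gene from −202. The Xrcc6 window is chr15:82016119-82016368 on the plus strand, with the string opposite from −46. The Chek2 window is chr5:110839733-110839982 on the plus strand, with the string opposite from −152. The search took exact matches alone, so a TTTCCCGC on the opposite strand always reads GCGGGAAA on the gene's strand, as in Brca2, Xrcc6 and Chek2. AGATAA was in 1 of the 37 windows (2.7%, Rad52) and in 12.7% of the genes of the table. CCAAT was in 23 of 37 (62.2%, against 41.1%), at 11 of the 17 genes that fell (64.7%) and 12 of the other 20 (60.0%). These matches describe letters in the windows and no binding was measured here.

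Checkpoint and damage signalling split, with 3 of 6 genes lower at 30 h and 0 higher, against 16.5% and 14.7% of all genes. Chek1 is the kinase that restrains the cell cycle when replication forks stall. Its signal was 215, 182 and 222 on arrays A, B and C at 0 h, 177, 181 and 203 at 3 h, then 164, 150 and 169 at 7 h. It was 113, 153 and 117 at 14 h, 59.1, 48.5 and 65.1 at 21 h, then 25.8, 42 and 40.9 at 30 h. Array B of 14 h lay among the 7 h arrays, and all arrays of 21 and 30 h lay below every earlier one. The change was −0.61 (SE 0.19, adjusted p = 0.0455) at 14 h, −1.53 (SE 0.19, adjusted p = 7.12e-06) at 21 h and −2.08 (SE 0.19, adjusted p = 8.95e-08) at 30 h. The call at 14 h was lost in 12 of 18 leave-one-out fits, and kept without 14 h array B, 21 h array A or C or any 30 h array. It was also lost with a constant of 1, with array weights and with the compared times fitted alone.

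Chek2, the kinase that Atm activates after breaks through both strands, had no called change. It read 231, 294 and 268 at 0 h, then 217, 251 and 283 at 30 h. Over the 4 times between, it ran from 206 to 307. The arrays overlapped throughout, and the change at 30 h was 0.04 (SE 0.17, adjusted p = 0.903).

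Rad1 belongs to the ring-shaped checkpoint clamp, together with Rad9a, and Rad17 loads that clamp onto DNA. Rad1 read 290, 92.1 and 175 at 0 h, 126, 123 and 239 at 3 h, then 171, 72.1 and 151 at 7 h. It read 77.9, 101 and 103 at 14 h, 7.6, 74 and 41.9 at 21 h, then 16, 25.7 and 16.7 at 30 h. The spread at 0 h was wide, yet no 30 h array reached the lowest of 0 h. The change was −1.84 (SE 0.46, adjusted p = 0.00572) at 21 h and −2.38 (SE 0.46, adjusted p = 0.000424) at 30 h. Rad9a was not called, and its signals of 11.6, 52.8 and 25.4 at 0 h, then 29.8, 17.4 and 60.4 at 30 h overlapped.

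Rad17 was higher at 3 and 21 h and not at 30 h. It read 78.1, 75.5 and 93.7 at 0 h, then 190, 156 and 156 at 3 h, so the arrays separated. It stayed between 97.7 and 168 from 7 to 21 h, and read 82.1, 74.5 and 99.4 at 30 h, overlapping the 0 h arrays. The change was 0.90 (SE 0.21, adjusted p = 0.0404) at 3 h, 0.70 (SE 0.21, adjusted p = 0.0207) at 21 h, then 0.13 (SE 0.21, adjusted p = 0.741) at 30 h. The call at 3 h was lost in 9 of 18 leave-one-out fits, with adjusted p up to 0.201. These left out any array of 0 or 3 h, 21 h array C or 30 h array A or B. Fitting the 0 and 3 h arrays alone also lost the call at 3 h. The call at 21 h was lost without 0 h array A or B or 21 h array A or C.

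Atm, the kinase that signals breaks through both strands, was weak on the array. It read 52.9, 57.8 and 26.0 at 0 h, 36.8, 39.4 and 71.9 at 3 h, then 47.0, 18.8 and 45.2 at 7 h. It read 13.4, 28.6 and 46.3 at 14 h, 10.1, 30.8 and 7.3 at 21 h, then 4.5, 7.5 and 9.4 at 30 h. All 30 h arrays lay below all 0 h arrays, with a change of −1.38 (SE 0.37, adjusted p = 0.0072).

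Homologous recombination, the role with the most genes, had 7 of 10 lower at 30 h and 0 higher (16.5% and 14.7% of all genes). Rad51ap1, which acts in recombination, had the smallest F test p of the 43 genes. It read 622, 624 and 570 at 0 h, then 672, 642 and 742 at 3 h, 649, 679 and 568 at 7 h, then 663, 656 and 799 at 14 h. It then read 360, 518 and 470 at 21 h, then 129, 149 and 179 at 30 h. The level was flat to 14 h, and every 21 h array lay below every earlier one and above every 30 h array. The change was −0.41 (SE 0.14, adjusted p = 0.0446) at 21 h and −1.82 (SE 0.14, adjusted p = 5.9e-09) at 30 h, of which −1.42 (SE 0.14, adjusted p = 3.69e-06) came after 21 h. The call at 21 h was lost without any 0 h array, 3 h array A or B, 7 h array A, 21 h array A or C or 30 h array B. It was also lost with median scaling, a constant of 1, no variance trend, array weights or the compared times fitted alone.

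Brca2, a tumour suppressor of the recombination pathway, moved in the same span. It read 231, 296 and 249 at 0 h, then between 188 and 341 from 3 to 14 h. It read 151, 160 and 183 at 21 h, then 45.8, 52.3 and 54.4 at 30 h. The 21 h arrays lay below all earlier ones, and the 30 h arrays well below those. At 21 h the change of −0.52 (SE 0.18, adjusted p = 0.0539) was not called, and at 30 h it was −1.98 (SE 0.18, adjusted p = 8.27e-08). Its promoter is among those printed above.

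Brca1, the ubiquitin ligase that promotes the trimming of break ends, read 116, 123 and 138 at 0 h, then 93.5 to 165 from 3 to 14 h. It read 72.2, 116 and 107 at 21 h, then 35, 46.9 and 41.8 at 30 h. The 30 h arrays lay below all others, with a change of −1.28 (SE 0.22, adjusted p = 0.000135), and the step from 21 to 30 h was −1.01 (SE 0.22, adjusted p = 0.00916), a call lost without 21 h array B.

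Rad51b and Rad51d also act in recombination. Rad51b read 74.2, 83.1 and 109 at 0 h, 114, 76.3 and 67.6 at 3 h, then 81.5, 60.1 and 66.3 at 7 h. It read 49.3, 67.2 and 61.6 at 14 h, 32.5, 56.6 and 50.1 at 21 h, then 9.4, 7.9 and 6.3 at 30 h. The 30 h arrays were far below all others, and the change was −2.11 (SE 0.27, adjusted p = 4.37e-06). Rad51d read 79.7, 66.2 and 38.6 at 0 h, then 20.3, 4.8 and 44.7 at 30 h, so that array C of 30 h lay above array C of 0 h. Its change of −1.10 (SE 0.32, adjusted p = 0.0138) lost the call without 0 h array A or 30 h array B.

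Rad50, part of the complex that tethers broken ends, had a lower mean at each later time. It read 419, 439 and 568 at 0 h, 494, 305 and 440 at 3 h, then 384, 286 and 324 at 7 h. It read 302, 287 and 283 at 14 h, 262, 231 and 275 at 21 h, then 201, 175 and 143 at 30 h. From 7 h on all arrays were below those of 0 h. The change was −0.64 (SE 0.18, adjusted p = 0.0215) at 14 h, −0.76 (SE 0.18, adjusted p = 0.00373) at 21 h and −1.29 (SE 0.18, adjusted p = 1.29e-05) at 30 h. The call at 14 h was lost without 0 h array C or 14 h array B or C.

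Blm and Wrn are helicases of the RecQ family, which unwind joined or blocked strands. Blm read 302, 169 and 419 at 0 h, 322, 300 and 326 at 3 h, then 265, 156 and 224 at 7 h. It read 225, 270 and 210 at 14 h, 192, 232 and 167 at 21 h, then 105, 97.8 and 119 at 30 h, where the change was −1.18 (SE 0.24, adjusted p = 0.000622). All Blm arrays of 30 h lay below those of the other times. Wrn read 108, 117 and 125 at 0 h, 189, 229 and 261 at 3 h, then 346, 187 and 247 at 7 h. It read 319, 249 and 287 at 14 h, 161, 268 and 293 at 21 h, then 146, 125 and 164 at 30 h.
Every Wrn array from 3 to 21 h lay above every 0 h array, and at 30 h array B was at the level of the highest 0 h array. The Wrn change was 0.86 (SE 0.22, adjusted p = 0.0779) at 3 h, 1.04 (SE 0.22, adjusted p = 0.00871) at 7 h, 1.23 (SE 0.22, adjusted p = 0.000684) at 14 h, then 0.98 (SE 0.22, adjusted p = 0.00269) at 21 h. At 30 h it was 0.38 (SE 0.22, adjusted p = 0.248). The call at 7 h was lost without 7 h array A.

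Rad52, which anneals single strands, ran from 105 to 174 over all 18 arrays. Rad54l, a motor protein of recombination, ran from 3.7 to 32.5 and lay in the lowest 33.3% of all probe sets by mean level. Neither was called at any time. A fall of Rad54l could hardly be measured at that level, so its lack of a call says little. Rad52 changed by 0.31 (SE 0.17, adjusted p in limma = 0.216) at 30 h and was not among the falls.

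**Figure D3:**
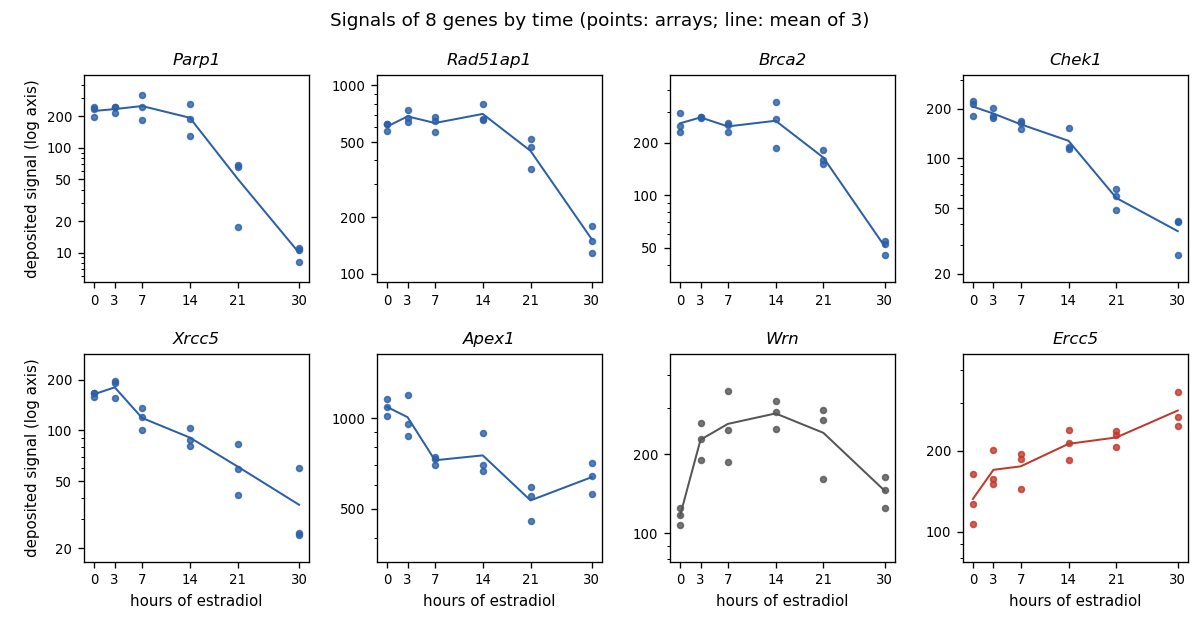
Deposited signals (log axis) of Parp1, Rad51ap1, Brca2, Chek1, Xrcc5, Apex1, Wrn and Ercc5 against hours of estradiol, with 1 point per array and a line through the mean of 3 arrays. The lines of Parp1, Rad51ap1 and Brca2 fall mainly after 14 h. Chek1 and Xrcc5 fall over the course, Apex1 drops by 7 h, Wrn is high from 3 to 21 h, and Ercc5 climbs.

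End joining was represented by Xrcc5 and Xrcc6, the subunits of the Ku ring that binds broken ends, and both fell. At 30 h, 16.5% of all genes were lower. Xrcc5 read 159, 167 and 167 at 0 h, 196, 155 and 190 at 3 h, then 119, 137 and 100 at 7 h. It read 81.0, 104 and 87.8 at 14 h, 41.3, 82.7 and 59.4 at 21 h, then 24.6, 60.1 and 24.1 at 30 h. From 7 h on every array lay below the 0 h arrays, and array B was the highest at 14, 21 and 30 h. The change was −1.20 (SE 0.29, adjusted p = 0.00396) at 21 h and −1.82 (SE 0.29, adjusted p = 5.13e-05) at 30 h. The call at 21 h was lost when its probe sets were averaged.
Xrcc6 read 177, 165 and 174 at 0 h, 161, 136 and 209 at 3 h, then 102, 119 and 124 at 7 h. It read 74.5, 143 and 115 at 14 h, 48.9, 73.8 and 67.1 at 21 h, then 46.3, 47.7 and 65 at 30 h. Its arrays too were below those of 0 h from 7 h on. The change was −1.19 (SE 0.25, adjusted p = 0.00118) at 21 h and −1.39 (SE 0.25, adjusted p = 0.000178) at 30 h, close to that of Xrcc5 at 21 h.

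Of the 3 Fanconi anemia genes, which act on crosslinks between the strands, Fancm fell by 30 h (16.5% of all genes did). It is a DNA translocase and read 33.1, 31.7 and 29.8 at 0 h, then 69.3, 65.7 and 62 at 14 h, 10.1, 57.1 and 54.6 at 21 h, then 2.1, 7.1 and 9.4 at 30 h. The arrays were highest at 14 h, where the change of 0.76 (SE 0.36, adjusted p = 0.202) was not called, and lowest at 30 h, at −1.12 (SE 0.36, adjusted p = 0.0241). The call at 30 h was lost without 0 h array A, B or C or 30 h array A, and with a constant of 64. Fancc and Fancg, of the core complex, were not called: Fancc had a change of −1.17 (SE 0.43, adjusted p = 0.0514) at 30 h, with arrays between 34.7 and 155 over the course, and Fancg a change of −0.40 (SE 0.41, adjusted p = 0.557).

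Base excision and single-strand break repair had 4 of 7 genes lower at 30 h and 0 higher, against 16.5% and 14.7% of all genes. Parp1, the enzyme that marks breaks with chains of ADP-ribose, had the deepest fall of the 43 genes. It read 233, 243 and 198 at 0 h, 243, 243 and 216 at 3 h, then 318, 247 and 186 at 7 h. It read 130, 263 and 188 at 14 h, 17.5, 69.3 and 65.2 at 21 h, then 11.1, 8.2 and 10.6 at 30 h. No change was called to 14 h, though 14 h arrays A and C lay below every 0 h array. The signal was lower on every 21 h array, lowest on array A, and was near the bottom of the scale at 30 h. The change was −1.91 (SE 0.33, adjusted p = 0.000213) at 21 h and −3.20 (SE 0.33, adjusted p = 3.07e-07) at 30 h. Its probe set ends in _f_at, a name given to probes that may read related transcripts, so the gene assigned to it is uncertain.

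Parp2, a second break-binding enzyme of that kind, has a plain probe set. It read 518, 519 and 583 at 0 h, 583, 608 and 710 at 3 h, then 502, 487 and 421 at 7 h. It read 377, 572 and 526 at 14 h, 287, 358 and 369 at 21 h, then 198, 241 and 206 at 30 h. The 21 and 30 h arrays lay below every earlier one, and the change was −0.62 (SE 0.15, adjusted p = 0.00496) at 21 h and −1.20 (SE 0.15, adjusted p = 3.73e-06) at 30 h. The call at 21 h was lost with median scaling.

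Apex1, the endonuclease that cuts at sites without a base, was first called at 7 h, before any other gene that fell. It read 1088, 1157 and 1018 at 0 h, 956, 872 and 1190 at 3 h, then 734, 742 and 698 at 7 h. It read 699, 667 and 891 at 14 h, 456, 554 and 591 at 21 h, then 645, 707 and 561 at 30 h. From 7 h on every array lay below those of 0 h. The change was −0.62 (SE 0.13, adjusted p = 0.00927) at 7 h, −0.56 (SE 0.13, adjusted p = 0.00681) at 14 h, −1.06 (SE 0.13, adjusted p = 7.12e-06) at 21 h and −0.80 (SE 0.13, adjusted p = 0.000107) at 30 h. The calls at 7 and 14 h were lost when arrays were scaled to a common median.

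Xrcc1, the scaffold of single-strand break repair, read 188, 163 and 219 at 0 h, then 101, 90.5 and 79.1 at 30 h. Those arrays did not overlap, and the change was −0.87 (SE 0.20, adjusted p = 0.00199). Its partner Lig3, the ligase, ran from 54.7 to 121 over the course and changed by −0.05 (SE 0.24, adjusted p = 0.921) at 30 h.

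Ogg1 and Ung are glycosylases, which remove oxidised guanine and uracil. Ogg1 read 70.0, 78.9 and 102 at 0 h, 90.8, 74 and 65.9 at 3 h, then 114, 125 and 102 at 7 h. It read 73.3, 44.8 and 51.0 at 14 h, 29.7, 70.5 and 38.0 at 21 h, then 116, 60.9 and 75.9 at 30 h. It passed the F test alone (adjusted p = 0.0486), with its highest mean at 7 h and its lowest at 21 h. No comparison called it.

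For Ung, the gene's probe sets disagreed. The one with the higher mean signal, which ends in _r_at and so breaks a design rule of the array, read 341, 381 and 206 at 0 h, 321, 324 and 280 at 3 h, then 293, 363 and 253 at 7 h. It read 461, 323 and 326 at 14 h, 520, 384 and 349 at 21 h, then 291, 317 and 501 at 30 h, a change of 0.34 (SE 0.24, adjusted p = 0.351). The other, a plain probe set, read 419, 411 and 438 at 0 h, then 194, 165 and 185 at 30 h, a change of −1.07 (SE 0.17, adjusted p = 7.81e-05). The arrays overlapped in the first and not in the second, and the difference between the probe sets was not tested.

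Other genes with a second probe set on the array were Ercc2, Ercc5, Fancc, Lig3, Msh3, Rad23b, Rad52, Xpa, Xrcc1 and Xrcc5. For Rad23b both probe sets fell. For the others, no second probe set was called at 30 h, and several were near the floor of the scale, such as that of Xrcc5 with a mean of 0.433 at 0 h, then 1.13 at 30 h.

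**Figure D4:**
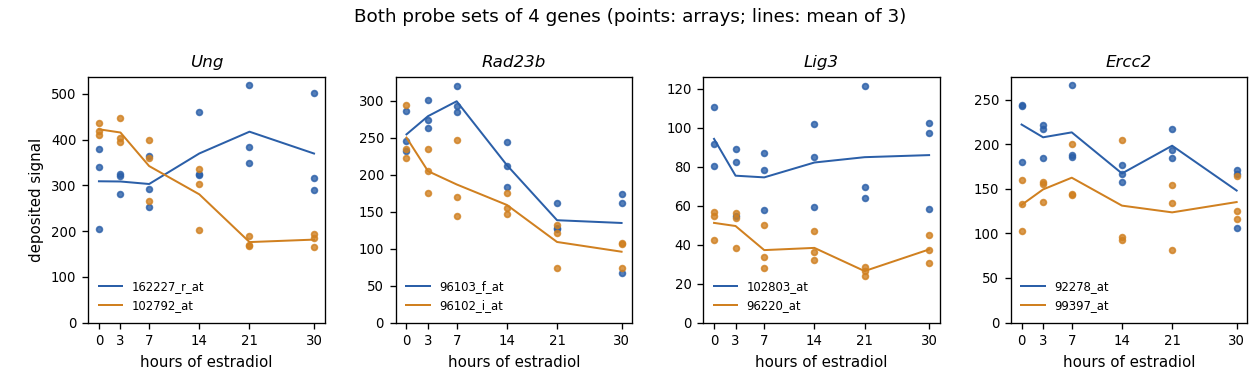
Deposited signals of both probe sets of Ung, Rad23b, Lig3 and Ercc2 against hours of estradiol, with 1 point per array and a line through the mean of 3 (blue for the probe set that stands for the gene, orange for the other). The lines of Ung part, with the orange one falling to a mean of 181 at 30 h from 423, while both lines of Rad23b fall.

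Mismatch repair had 1 of 4 genes lower at 30 h, against 16.5% of all genes, a count too small to set it apart from that share. Msh3, which recognises small loops, read 80.0, 75.3 and 105 at 0 h, 109, 92.8 and 117 at 3 h, then 90.3, 86.4 and 87.2 at 7 h. It read 74.8, 47.5 and 80.9 at 14 h, 70.0, 72.8 and 59.9 at 21 h, then 15.9, 38.3 and 18.1 at 30 h. The fall came at the last time, at −1.38 (SE 0.26, adjusted p = 0.000287). Pms2, a subunit of the complex that nicks the new strand, had a mean of 123 at 14 h and fell by 1.0 (SE 0.26, adjusted p = 0.0291) from 21 to 30 h. That put it at 35.5, 43.1 and 35.5, below each 0 h array of 66.7, 47.4 and 109, without a call against 0 h (−0.67, SE 0.26, adjusted p = 0.0677). The call of the last step was lost without 21 h array A or B or 30 h array A or C. It was also lost with median scaling, a constant of 64 or the compared times fitted alone.
Msh5, known for its role in meiosis, rose at 21 h. It read 37.2, 37.5 and 41.8 at 0 h, 124, 99.9 and 79.0 at 21 h, then 51.1, 87.1 and 53.0 at 30 h. The change was 1.12 (SE 0.24, adjusted p = 0.00176) at 21 h, then 0.53 (SE 0.24, adjusted p = 0.123) at 30 h, and every 21 h array lay above every 0 h array. Msh6, the partner of the main mismatch sensor, ran from 5.6 to 45.0 and was not called.

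Nucleotide excision repair had 2 of 8 genes higher at 30 h and 1 lower, against 14.7% and 16.5% of all genes. Counts this small cannot be told from those shares. Ercc5, the nuclease that cuts on the 3′ side of the lesion, read 107, 164 and 127 at 0 h, 158, 150 and 202 at 3 h, then 144, 186 and 195 at 7 h. It read 185, 213 and 238 at 14 h, 206, 237 and 230 at 21 h, then 268, 331 and 247 at 30 h. From 14 h on every array exceeded the 0 h arrays. The change was 0.67 (SE 0.19, adjusted p = 0.0198) at 14 h, 0.80 (SE 0.19, adjusted p = 0.00338) at 21 h, then 1.11 (SE 0.19, adjusted p = 0.000101) at 30 h. The call at 14 h was lost without 0 h array A or C or 14 h array B or C. It was also lost with median scaling, with the compared times fitted alone and with its probe sets averaged.

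Xpa, the protein that checks the lesion, read 16.9, 25.2 and 25.1 at 0 h, 31.5, 33.4 and 32.2 at 3 h, then 16.2, 31.5 and 24.0 at 7 h. It read 27.8, 28.5 and 33.0 at 14 h, 50.3, 35.7 and 29.2 at 21 h, then 42.5, 47.5 and 60.3 at 30 h. The 30 h arrays were all above those of 0 h, at a low level, with a change of 0.79 (SE 0.24, adjusted p = 0.0176). The call was lost without 0 h array A, 30 h array B or 30 h array C.

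Xpc finds the lesion and Rad23b is bound to it. Xpc was weak, at 16.6, 24.5 and 36.3 at 0 h, 6.3, 24.2 and 26.1 at 3 h, then 30.9, 18 and 6.3 at 7 h. It read 31.1, 16.4 and 37.4 at 14 h, 38.0, 11 and 11.8 at 21 h, then 22.3, 18 and 5.2 at 30 h, with no call at any time. Rad23b read 286, 232 and 246 at 0 h, 126, 162 and 127 at 21 h, then 67.6, 162 and 174 at 30 h. Its change was −0.74 (SE 0.24, adjusted p = 0.0303) at 21 h and −0.84 (SE 0.24, adjusted p = 0.0106) at 30 h, the latter losing the call without 30 h array A and the former without 0 h array A or C or 21 h array A or C. Its probe set ends in _f_at. The second one, ending in _i_at, read 293, 235 and 222 at 0 h, then 106, 73.8 and 107 at 30 h, a change of −1.17 (SE 0.22, adjusted p = 0.000324).

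Ercc1 and Ercc4 form the nuclease that cuts on the 5′ side, and Ercc2 and Ercc3 are the helicases that open the DNA as part of the general transcription factor TFIIH. None of these 4 was called, with changes at 30 h of −0.08 (SE 0.35) for Ercc1, −0.46 (SE 0.19) for Ercc2, −0.28 (SE 0.22) for Ercc3 and −0.51 (SE 0.25) for Ercc4. Of the Parp genes without a main part in break repair, Parp6 rose. It read 49.8, 56.3 and 57.6 at 0 h, then 92, 91.5 and 87.6 at 14 h, 123, 108 and 106 at 21 h, then 108, 97.9 and 71.3 at 30 h. From 14 h on its arrays lay above those of 0 h, with a change of 0.92 (SE 0.21, adjusted p = 0.00295) at 21 h, then 0.66 (SE 0.21, adjusted p = 0.0236) at 30 h. The call at 30 h was lost without 0 h array A, 30 h array A or 30 h array B, and with median scaling. Parp16, at 82.1 to 164, and Parp8, at 0.5 to 9.5, were not called.

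**Figure D5:**
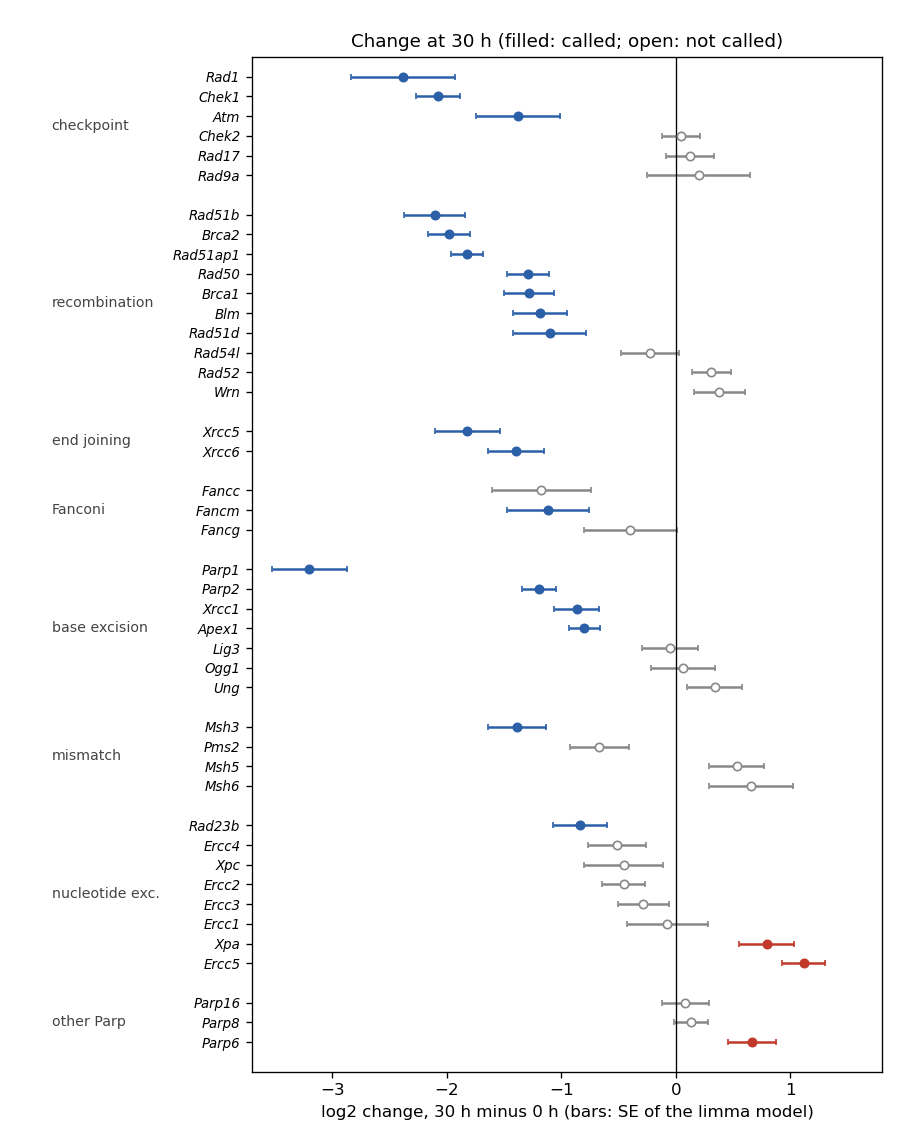
Log2 change from 0 to 30 h of the 43 genes, by role, with bars for the SE of the limma model (filled points are called, blue lower and red higher, and open points are not called). Parp1 lies farthest to the left at −3.20 and Ercc5 farthest to the right at 1.11. Both end joining genes and 7 of 10 recombination genes are blue, and 16.5% of all genes were lower.

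Repair genes whose names the rule did not take in were counted from a list. Of 81 listed, 45 were measured, and at 30 h 22 were lower and 1 was higher (of all genes, 16.5% were lower and 14.7% higher), with a median change of −0.69. At 21 h, 14 were lower and 4 higher, against 13.2% and 11.4% of all genes. Among those that fell were Pcna, the sliding clamp of replication and repair, from a mean of 1414 to 135, with a change of −3.26 (SE 0.28, adjusted p = 3.22e-08). Topbp1, the activator of the stalled-fork checkpoint, fell by 2.84 (SE 0.20, adjusted p = 2.51e-09). Usp1, the deubiquitinase of the Fanconi pathway, fell by 3.05 (SE 0.24, adjusted p = 1.04e-08), and Mre11a, the partner of Rad50, by 2.25 (SE 0.39, adjusted p = 0.000137). The 3 subunits of replication protein A, Rpa1, Rpa2 and Rpa3, changed by −2.18, −1.15 and −1.49. The gene that rose was Ube2b, the ubiquitin-conjugating partner of Rad18 in lesion bypass, which read 70.4, 53.6 and 82.4 at 0 h, then 240, 386 and 394 at 30 h, a change of 2.14 (SE 0.19, adjusted p = 5.08e-08). Replication fork genes moved with these values: 24 of 26 listed were measured, 15 were lower and 1 was higher (Cdc6) at 21 h, then 20 were lower and 0 higher at 30 h, with a median of −2.24, beside the same shares of all genes. The part of the cell cycle in the repair gene changes was not tested.

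Genes known as targets of the damage-activated factor Trp53 were more often higher than lower. Of 29 listed, 18 were measured, and Ercc5 and Xpc stand in both sets. At 30 h, 10 were higher and 0 lower, with a median change of 0.74, against 14.7% of all genes higher and 16.5% lower. At 21 h, 7 were higher and Zmat3 was lower, against 11.4% and 13.2%. Btg2, an antiproliferative gene, was the strongest, with 259, 260 and 356 before estradiol and 3595, 3366 and 2680 at the last time, a change of 3.35 (SE 0.22, adjusted p = 7.48e-10). Gadd45a, a stress-induced gene, rose by 2.24 (SE 0.17, adjusted p = 7.97e-09), and Phlda3, a repressor of Akt signalling, by 1.84 (SE 0.14, adjusted p = 8.79e-09). These were already higher at 14 h, and Btg2 was higher at 7 h as well.
Cdkn1a, the inhibitor of cyclin-dependent kinases, and Mdm2, the ubiquitin ligase for Trp53, moved late. Cdkn1a read 1364, 1355 and 1171 at 0 h, then 3801, 2997 and 2145 at 30 h, a change of 0.98 (SE 0.27, adjusted p = 0.0105), and was not called at 21 h. Mdm2 read 154, 142 and 134 at 0 h, then 268, 249 and 261 at 30 h, a change of 0.89 (SE 0.16, adjusted p = 0.000242). Ccng1, another target, was not called, at 0.31 (SE 0.18, adjusted p = 0.226). Trp53 itself was not among the 43 genes, and its part in these changes was not tested.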

How the data were processed

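RNA of 18 samples was read on Affymetrix MG-U74Av2 arrays. The values, deposited by the authors and described per the labels as signal, are intensity values on a linear scale, 1 per probe set and array. How they were summarised and scaled, and any detection calls, are not stated in the labels. Tests ran on 12422 probe sets, without the 66 controls. A constant of 16 was added, log2 taken and arrays quantile normalized, which shrinks changes of weak genes and assumes a shared distribution of signals. limma 3.58.1 in R 4.3.3 (lmFit, eBayes with trend) was fitted to all arrays, with 1 mean per time, 12 residual degrees of freedom and Benjamini-Hochberg adjustment over all probe sets within each of 9 comparisons and the F test. Permuting 3 against 3 arrays could not reach 0.05, so tests rest on variance shared across probe sets. The fit was tested on simulated data.

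Symbols came from the platform annotation, and all 43 gene numbers were found in the RefSeq gene table with the same symbol. All percentages of all genes count 1 probe set for each of 8251 genes. Array values are given for the 16 genes with the smallest F test p, the largest called rises and falls at 30 h, and a list of key repair genes. Values of other genes with a call or a second probe set were added. Members, lists and markers (erythroid, megakaryocyte, mast, neutrophil and macrophage, lymphocyte, stroma) were chosen with earlier results of these data known. Replicate letters were checked for pairing by correlating the arrays' deviations from the time means. Same-letter pairs had a median of 0.03 and a maximum of 0.20, and 3 of 45 exceeded 0.1. Other-letter pairs had a median of −0.008 and a maximum of 0.07, and 0 of 90 exceeded 0.1. The correlations were small, but every pair above 0.1 shared a letter, so whether the letters pair the arrays was not settled. The main fit did not pair the arrays. Alternatives covered normalization, the constant, a filter on weak probe sets, the variance model, array weights, a replicate block, the arrays fitted, each array left out and the choice of probe set.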

Additional observations from a re-analysis of the deposited data

How the results depend on the processing

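The counts at 21 and 30 h and of the F test stayed within 1.5 times of the reported value under every setting. At 30 h 19 to 24 genes were called, and 17 of the 22 calls were kept in every setting that measured the gene. Parp1 is among these 17, but it has no plain _at probe set. Its call was therefore not checked with plain _at probe sets alone. Earlier and stepwise counts were less firm. At 3 h the count of 1 became 2 with array weights, 0 with the compared times fitted alone and 0 to 2 with an array left out. At 7 h, 2 became 1 with median scaling and 1 to 2 with an array left out. At 14 h, 5 became 3 with median scaling, 8 without the weakest 33.3% of probe sets and 2 to 7 with an array left out. Fitted alone, the times gave 0 in place of 3 from 14 to 21 h and 2 in place of 9 from 21 to 30 h, and leaving out an array gave 1 to 6 and 4 to 9. Ung changed sign, to −1.07, when plain _at probe sets alone were used, a setting chosen after seeing the data. With the replicate letter as a block, the counts were 23 at 30 h, 16 at 21 h and 24 in the F test, in place of 22, 15 and 25. The cause of these shifts was not tested. Without detection calls, levels near the bottom of the scale, such as Parp1 at 30 h, limit how far a fall can be measured. The scaling alternatives gave the median change of all probe sets between −0.04 and 0.05.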
